A study of Rattus norvegicus with 20 samples.

Results

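The nuclear-encoded subunits of the respiratory chain and of ATP synthase were followed in rat skeletal muscle. A probe set belonged to this group when its only gene symbol in the platform annotation began with Nduf, Uqcr, Cox4 to Cox8 or Atp5, or was Cyc1, Cycs, Slc25a3 or Slc25a4. The rule found 102 of the 8799 probe sets, for 56 genes; 97 of these probe sets passed the filter on dim signal, and each of the 56 genes kept at least 1 of them. Cycs, which encodes cytochrome c, was matched only by a probe set with several symbols and has no member here. By role, 24 genes belonged to complex I, 4 to complex III, 12 to complex IV and 9 to complex V, which is ATP synthase. A further 2 were carriers and 5 were associated genes: an inhibitor, an assembly factor, a supercomplex factor, a paralogue and a pseudogene. Ndufa4, named after complex I, was counted with complex IV.

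RNA came from rear-leg skeletal muscle of rats in 4 groups of 5 one-colour Affymetrix arrays: normal rats and diabetic rats, each either untreated or treated with vanadyl sulfate (a salt of vanadium known to mimic some effects of insulin). The treated groups are called treated diabetic and treated normal muscle below. The labels used here name neither the strain, the age, the leg muscle nor the cause of the diabetes, nor how much vanadyl was given and for how long. The labels leave unsaid whether the 5 replicates of a group are separate animals, so the p-values measure the spread between these samples. The signal of a piece of muscle cannot tell fewer cells of a type from less RNA per cell.

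The respiratory chain passes electrons from NADH and succinate to oxygen and pumps protons across the inner mitochondrial membrane. ATP synthase lets the protons flow back and makes ATP, which the adenine nucleotide translocator exchanges for cytosolic ADP while the phosphate carrier brings in phosphate. Skeletal muscle, and oxidative fibres above all, holds large amounts of these complexes, and many of their nuclear genes share binding sites for the factors NRF-1, GABPA and the estrogen-related receptors.

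The table held MAS5 signals scaled by the authors, and differences are given as log2 changes of log2(signal + 16). The members were among the brightest probe sets: 48 of the 56 genes lay above the 90th percentile of the array, and 42 above the 95th. RNA control probe sets differed between arrays of the same group. The Gapdh control's log2 ratio (3' over 5' signal) reached 3.94 in treated diabetic replicate 1, 2.91 in normal replicate 3 and 2.90 in normal replicate 1, whereas the other 17 arrays did not exceed 1.31. The beta-actin log2 ratio had medians of 0.63 in normal (0.58 to 3.01) and 0.75 in treated normal arrays (0.48 to 2.09). Its medians were higher in diabetic (1.97, from 0.93 to 2.52) and treated diabetic arrays (2.09, from 1.20 to 2.61). Neither ratio passed in 10 exact permutation tests of 1 group against another (two-sided, 5 against 5, p from 0.0635 to 0.929, adjusted p from 0.317 to 0.929, with 0.00794 the smallest p possible). Both diabetic groups together were not tested against both normal groups. Of the 10 skeletal muscle markers listed, 7 were on the array and all 7 passed the filter, with a summed signal from 450500 to 2075000 over the 20 arrays. Markers of leukocytes and of adipocytes were higher in diabetic muscle, and their values stand with the related results below.

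Across the 56 genes, most subunits had lower signals in diabetic than in normal muscle and higher signals in treated diabetic than in diabetic muscle. The median log2 change from normal to diabetic muscle was -0.47, with 53 of 56 genes below 0, against a median of -0.04 over all 3582 genes tested. From diabetic to treated diabetic muscle the median was 0.72, with 52 of 56 genes above 0, against 0.10 over all genes. Single members seldom passed the test after adjustment over the 6027 probe sets (limma, two-sided, Benjamini-Hochberg, threshold 0.05). Cyc1 alone was called lower in diabetic muscle, where 110 of 6027 probe sets were called (1.83%) and 0.564% were called lower. Ndufb9 alone was called higher in treated diabetic against diabetic muscle. There 30 of 6027 probe sets were called (0.498%), 0.0498% higher and 0.448% lower. Both comparisons use the same 5 diabetic arrays, so a signal that happened to be low there enters both with opposite sign, and they do not support each other.

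More members stood apart without passing that test. In diabetic against normal muscle, 25 of the 97 member probe sets had an unadjusted limma p under 0.05 (24 of them lower), where 16.7% of all probe sets did, 7.57% lower and 9.14% higher. In treated diabetic against diabetic muscle the number was 48 of 97 (47 higher), where 16.3% of all probe sets did and 8.78% were higher. The 5 diabetic arrays lay wholly below the 5 normal arrays for 13 member probe sets (8 genes), where 1.76% of all probe sets were separated in that direction, 3.33% in the other and 5.09% in either. The 5 treated diabetic arrays lay wholly above the 5 diabetic arrays for 28 member probe sets (23 genes), where 2.37% of all probe sets did and 4.45% were separated in either direction.

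Array by array, the diabetic group had the narrowest range. The median over the 56 genes of the difference from the normal mean was -0.65, -0.20, -0.52, -0.46 and -0.48 in diabetic replicates 1 to 5. It was 0.12, -0.17, 0.56, -0.34 and 0.02 in the normal arrays, so normal replicate 4 lay among the diabetic values and normal replicate 3 lay above all other normal arrays. In treated diabetic muscle it was 0.44, -0.06, 0.16, 0.06 and 0.53, each above every diabetic array. In treated normal muscle it was 0.04, -0.29, -0.43, 0.02 and -0.87, which spans the diabetic range, with replicate 5 the lowest of all 20 arrays. Member genes made up 4.87% to 6.37% of the summed signal of all probe sets other than controls in diabetic arrays and 6.89% to 9.50% in treated diabetic arrays, ranges that do not overlap. The shares were 5.67% to 8.90% in normal and 4.26% to 7.36% in treated normal arrays, and both overlap the diabetic range. Without the 3 arrays of high Gapdh ratio the median change from normal to diabetic muscle was -0.25, with 41 of 56 genes below 0, and without normal replicate 3 alone it was -0.31. The median from diabetic to treated diabetic muscle was 0.66 without those 3 arrays, with 51 of 56 genes above 0.

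**Figure D1:**
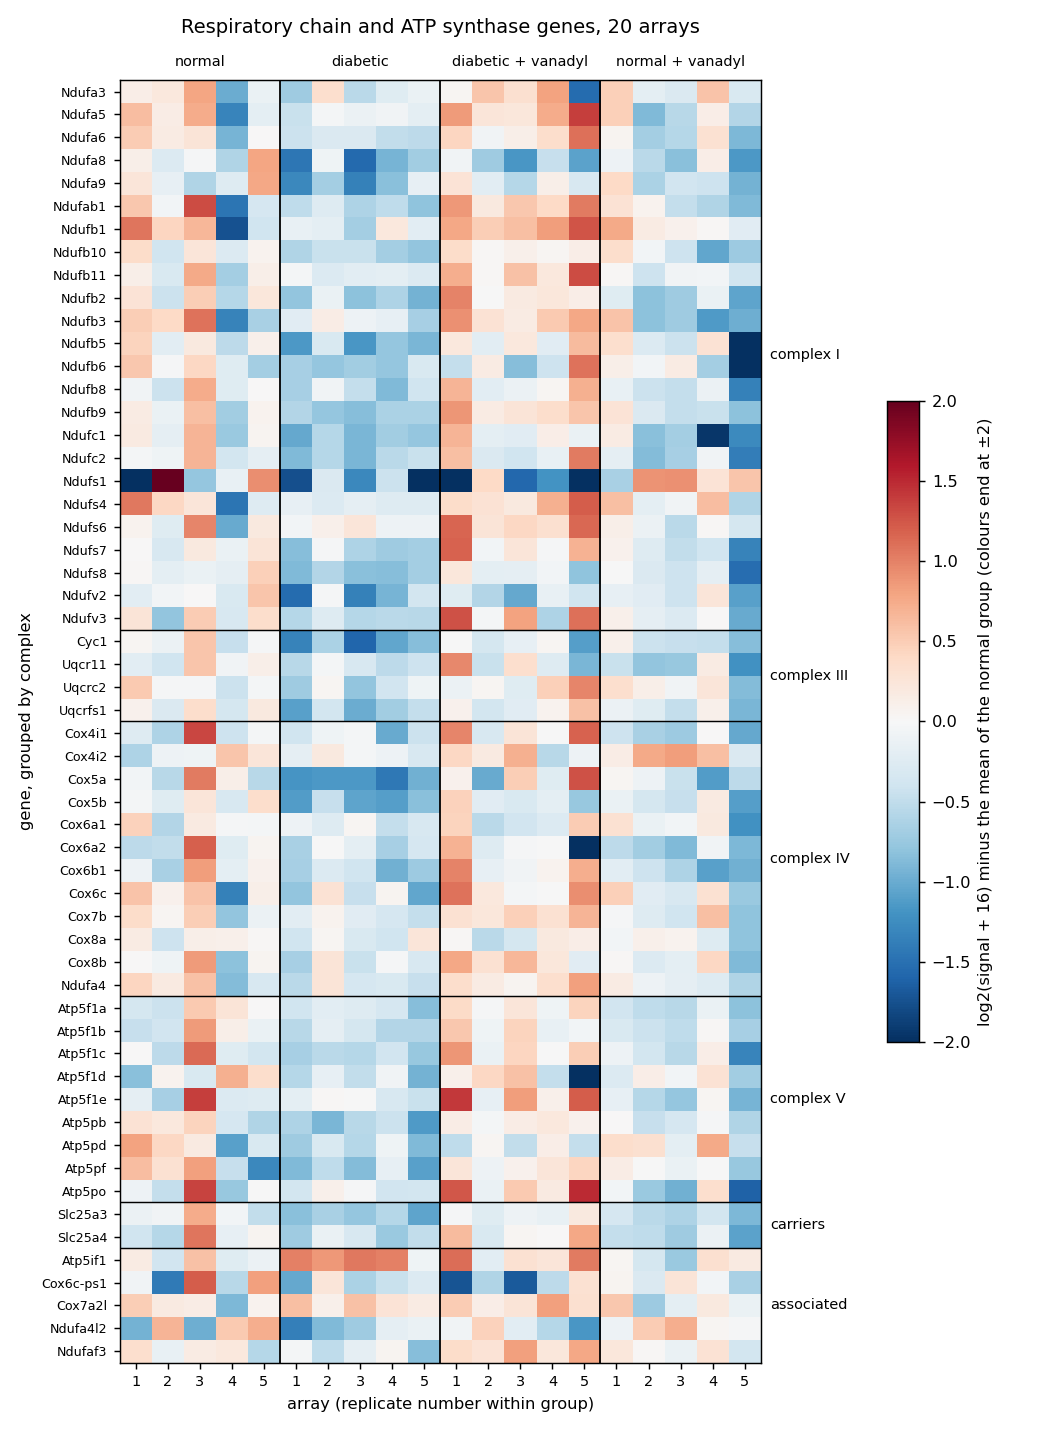
Each row is 1 of the 56 genes (its brightest probe set on average), grouped by complex, and each column is 1 of the 20 arrays; colour is log2(signal + 16) minus the mean of the normal group, with the scale ending at -2 and 2. The diabetic columns are mostly blue, with array medians from -0.65 to -0.20, and the treated diabetic columns are mostly pale or red, with medians from -0.06 to 0.53; Atp5if1 is red in 4 of the 5 diabetic arrays.

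The median changes of the complexes had the same sign as each other in each of 2 comparisons. From normal to diabetic muscle the median change was -0.58 over the 24 complex I genes, -0.55 over the 4 of complex III, -0.32 over the 12 of complex IV, -0.46 over the 9 of ATP synthase and -0.63 over the 2 carriers. From diabetic to treated diabetic muscle the same medians were 0.78, 0.68, 0.63, 0.83 and 0.71. Treated diabetic arrays lay wholly above diabetic ones for 14 of 24 genes in complex I and 0 of 4 in complex III. The counts were 2 of 12 in complex IV and 5 of 9 in ATP synthase, where 2.37% of all probe sets did so. Against the normal mean, treated diabetic array medians ran from -0.36 to 0.06 for complex III and 0.001 to 0.70 for complex I. They ran from -0.20 to 0.60 for complex IV and -0.08 to 0.43 for ATP synthase. The 5 associated genes lay elsewhere, with medians of -0.30 and 0.06. In complexes III, IV and V and the carriers, each of the 27 genes was below 0 in diabetic against normal muscle, and in complex I 23 of 24 were; 14 of the 56 genes changed sign under at least 1 alternative setting, Ndufs6, Cox4i2 and Atp5po among them. Without the 3 arrays of high Gapdh ratio the complex IV median was -0.05 with 9 of 12 genes below 0, and that of complex I was -0.36 with 16 of 24. The differences between complexes were not tested.

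**Figure D2:**
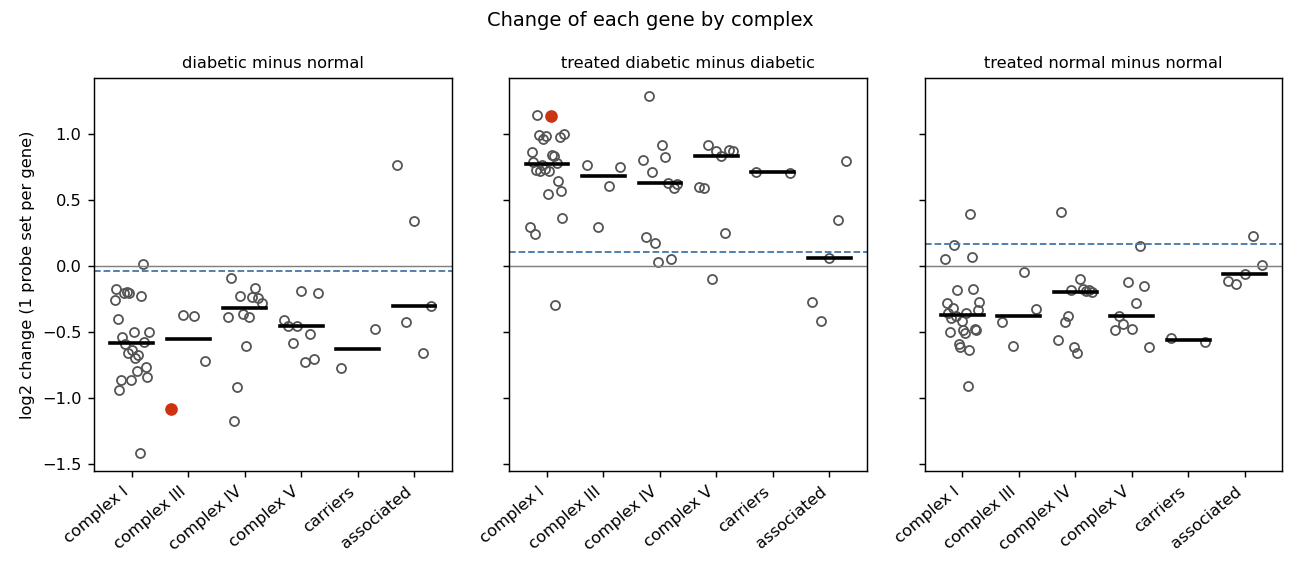
Points are log2 changes of single genes (1 probe set per gene), grouped by complex, for diabetic minus normal, treated diabetic minus diabetic, and treated normal minus normal muscle; black bars are medians of a complex, the dashed line is the median over all 3582 genes, and a filled red point passed the adjusted threshold. Filled points are Cyc1 at -1.09 in complex III (left) and Ndufb9 at 1.14 in complex I (middle).

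Promoter windows were available for 47 of the 56 genes in the RefSeq table of build GRCr8 (250 bases before to 50 after the start). Atp5pd, Cox4i2, Cox6a1, Cox6c, Cox6c-ps1, Cyc1, Ndufa8, Ndufb9 and Uqcr11 were not matched. On both strands and over the whole window, the NRF-1 core GCGCANG was present in 17 of 47 member promoters (36.2%), against 15.7% of the 33469 promoters in the table. The GABPA core CCGGAAG was present in 11 (23.4% against 8.75%), the estrogen-related receptor motif AAGGTCA in 5 (10.6% against 4.61%) and the Sp1 core GGGCGG in 22 (46.8% against 33.1%). The NRF-1 or the GABPA core was present in 24 of 47 (51.1% against 22.1%). The end of the GABPA core has the letters that begin the receptor motif, so matches to both can overlap. A match describes the letters in this window and shows neither binding nor a cause. The 250 bases before the start are printed for the 2 carriers and for the genes of complex IV and ATP synthase, Cox5a and Atp5pb, that lay lowest in p within their complex in treated diabetic against diabetic muscle. They read 5' to 3' toward the start on the gene's strand, with motif matches in capitals. The windows lie at chr7:27506628-27506877 (minus strand), chr16:52805271-52805520 (plus strand), chr8:66818034-66818283 (plus strand) and chr2:196123738-196123987 (minus strand).
Slc25a3: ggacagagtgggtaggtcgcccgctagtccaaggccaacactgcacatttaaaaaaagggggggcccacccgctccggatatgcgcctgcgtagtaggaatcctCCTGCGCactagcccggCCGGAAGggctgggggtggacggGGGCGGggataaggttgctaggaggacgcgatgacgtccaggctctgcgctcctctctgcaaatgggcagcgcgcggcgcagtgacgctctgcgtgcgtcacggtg
Slc25a4: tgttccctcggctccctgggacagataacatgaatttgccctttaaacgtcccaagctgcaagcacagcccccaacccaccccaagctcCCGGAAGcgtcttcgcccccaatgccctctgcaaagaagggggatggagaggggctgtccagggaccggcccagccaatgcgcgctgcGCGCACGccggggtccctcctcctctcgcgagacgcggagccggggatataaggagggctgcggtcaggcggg
Cox5a: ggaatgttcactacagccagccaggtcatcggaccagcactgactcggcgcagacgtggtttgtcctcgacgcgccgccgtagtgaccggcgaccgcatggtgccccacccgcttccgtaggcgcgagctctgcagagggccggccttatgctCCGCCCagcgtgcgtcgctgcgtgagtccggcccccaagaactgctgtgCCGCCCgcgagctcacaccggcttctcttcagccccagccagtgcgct
Atp5pb: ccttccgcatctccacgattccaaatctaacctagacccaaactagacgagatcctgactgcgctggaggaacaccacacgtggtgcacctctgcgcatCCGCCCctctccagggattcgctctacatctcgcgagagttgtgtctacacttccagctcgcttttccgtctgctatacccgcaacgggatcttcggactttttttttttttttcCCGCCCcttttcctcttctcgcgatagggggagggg
In Slc25a3 the NRF-1 core begins 146, the GABPA core 129 and the Sp1 core 106 bases before the start. In Slc25a4 the GABPA core begins 161 and the NRF-1 core 73 bases before it. Cox5a and Atp5pb hold only Sp1 cores in these bases, Cox5a at 97 and 48 and Atp5pb at 151 and 36 bases before the start.

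Complex I takes electrons from NADH. Ndufb9 (rc_AI171542_at), an accessory subunit of its membrane arm, rose in treated diabetic against diabetic muscle. Its 5 diabetic signals were 38837, 33890, 32335, 37402 and 37430, and its treated diabetic signals were 106802, 65065, 69608, 74405 and 85526. The normal arrays read 65115, 52865, 88262, 35752 and 60993, and the treated normal arrays 70219, 47334, 41844, 42518 and 32844. Every treated diabetic array was above every diabetic array by a wide gap, and normal replicate 4 lay inside the diabetic range. The rise was 2.2-fold (log2 change 1.14 ± 0.25, SE, n = 5 per group, limma adjusted p = 0.0409), and the change from normal to diabetic was -0.69 (adjusted p = 0.151). The call was lost in 13 of 20 fits that left out 1 array: the adjusted p became 0.0534 without normal replicate 5; 0.0924, 0.0777, 0.149, 0.087 and 0.0527 without diabetic replicates 1 to 5; 0.106, 0.0653, 0.0582 and 0.0775 without treated diabetic replicates 1, 3, 4 and 5; and 0.0592, 0.0534 and 0.0544 without treated normal replicates 2, 3 and 4. With the Gapdh ratio as a covariate it was 0.0515, and leaving out the 3 high-Gapdh arrays gave 0.0579.

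None of the other membrane-arm subunits passed in either comparison. Ndufb2 (rc_AI112237_at) read 35341, 55437, 34542, 39815 and 31685 in diabetic and 121256, 60273, 69186, 71213 and 66998 in treated diabetic arrays. These 2 groups did not overlap, and replicate 1 stood far above the other treated diabetic arrays. The log2 change was 0.96 ± 0.27 (SE, n = 5 per group, limma adjusted p = 0.118). Over the 13 accessory subunits of the membrane arm the median change was -0.64 from normal to diabetic and 0.76 from diabetic to treated diabetic muscle, with 13 of 13 below 0 in the former and above 0 in the latter. Among them, Ndufa3, Ndufb6 and Ndufb8 changed by -0.26, -0.64 and -0.50 and by 0.29, 0.54 and 0.72 (limma adjusted p from 0.232 to 0.782), with overlapping groups. Ndufb10 and Ndufc2 of this arm lay wholly below normal in diabetic muscle, with log2 changes of -0.59 and -0.67 (limma adjusted p = 0.212 and 0.268). Ndufa8 lay between 9865 and 27384 in diabetic (median 15179) and 19081 and 49977 in normal arrays (median 28445), so the groups overlapped, with a log2 change of -0.94 ± 0.33 (adjusted p = 0.148). Its treated diabetic signals, 12969 to 27507, covered nearly the same range as the diabetic ones, and the change with treatment was 0.25 (adjusted p = 0.735).

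The electron-entry and quinone-reducing modules of complex I hold 9 of the member genes, and none passed in either comparison. Ndufs7 (rc_AA875268_at), an iron-sulfur subunit next to the quinone site, had signals from 33447 to 59345 in diabetic and 57896 to 136948 in treated diabetic arrays, with medians of 37530 and 71672. The ranges overlapped through diabetic replicate 2, and the log2 change was 0.98 ± 0.28 (SE, n = 5 per group, limma adjusted p = 0.121). Ndufs8 (rc_AA799479_g_at), which carries 2 iron-sulfur clusters, read 38748, 33356, 34811, 33438 and 53145 in normal and 20698, 25419, 21406, 20983 and 23711 in diabetic arrays. The groups did not overlap, and the log2 change was -0.77 ± 0.27 (adjusted p = 0.141). Its treated diabetic signals ran from 21881 to 44453 (median 33756), with replicate 5 inside the diabetic range. Ndufa9 (rc_AA799525_at), of the same module, had diabetic signals from 7283 to 16625 (median 10429), against 12275 to 31963 (median 16658) for normal and 12603 to 22634 (median 16043) for treated diabetic arrays. Its groups overlapped, with log2 changes of -0.87 ± 0.30 and 0.73 ± 0.30 (adjusted p = 0.147 and 0.252). Over the 4 genes of the quinone-reducing module, which also holds Ndufa5, the medians were -0.67 and 0.80 for the same comparisons. Ndufs6 of the electron-entry module had almost the same mean in normal (15.59 ± 0.72, SD, n = 5) and diabetic muscle (15.61 ± 0.15), yet all 5 treated diabetic signals, 58739 to 111147, lay above the diabetic ones, 45961 to 58296. Ndufv2, an iron-sulfur subunit of that module, overlapped between groups, with log2 changes of -0.84 and 0.37 (adjusted p = 0.156 and 0.568). Ndufs1, the largest subunit, was dim (51.1 to 533 in diabetic, 79.9 to 4651 in normal arrays), and its spread of 2.07 (SD of log2, n = 5) in normal muscle was wide. Its change with treatment was -0.29 (adjusted p = 0.885) and turned to 0.39 with the Gapdh ratio as a covariate. In all, 14 complex I genes separated treated diabetic from diabetic arrays: Ndufa5, Ndufa6, Ndufab1, Ndufb1, Ndufb10, Ndufb11, Ndufb2, Ndufb3, Ndufb5, Ndufb9, Ndufc1, Ndufc2, Ndufs4 and Ndufs6.

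Complex III passes electrons from ubiquinol to cytochrome c. Cyc1 (rc_AA799474_at), the cytochrome c1 subunit that hands electrons to cytochrome c, fell in diabetic muscle. Its signals were 51905, 46647, 74297, 36775 and 49874 in normal and 20115, 32506, 16916, 24672 and 27934 in diabetic arrays. They were 50049, 39637, 45148, 51977 and 23590 in treated diabetic and 53958, 37506, 36737, 36513 and 28089 in treated normal arrays. No diabetic array reached the lowest normal one, and 4 of the 5 treated diabetic arrays lay above the whole diabetic group. The fall was 2.12-fold, a log2 change of -1.09 ± 0.27 (SE) over 5 arrays per group with a limma adjusted p of 0.0433, and the change with treatment was 0.77 ± 0.27 (adjusted p = 0.181). The call was lost in 9 of 20 fits that left out 1 array: the adjusted p became 0.0656, 0.0736 and 0.0862 without normal replicates 2, 3 and 5; 0.133, 0.148 and 0.0612 without diabetic replicates 1, 3 and 4; and 0.0554, 0.0553 and 0.0529 without treated normal replicates 2, 3 and 4. With the 3 high-Gapdh arrays left out the log2 change was -0.89 (adjusted p = 0.0741), and without diabetic replicates 1 and 3 together, the 2 diabetic arrays with the highest leukocyte marker levels, it was -0.84 (adjusted p = 0.496).

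Uqcrfs1 (M24542cds_g_at), the Rieske iron-sulfur protein, followed a like course. It read 91324, 70496, 108979, 67392 and 97658 in normal and 40342, 66720, 43072, 53062 and 61368 in diabetic arrays, which just failed to overlap. The treated diabetic signals were 91166, 66135, 72879, 90141 and 129148, and replicate 2 fell just under the highest diabetic array. The log2 changes were -0.72 ± 0.25 and 0.75 ± 0.25 (SE, n = 5 per group, limma adjusted p = 0.135 and 0.164). The core protein Uqcrc2 lay from 18084 to 32107 (median 23914) over the diabetic arrays, against 23174 to 44517 (median 30608) for normal and 26361 to 61314 (median 31970) for treated diabetic ones. The small subunit Uqcr11 lay from 72421 to 104137 (median 80350), 81220 to 157458 (median 101932) and 56393 to 207328 (median 88706) in the same order. Both overlapped between these groups, with log2 changes of -0.38 and -0.37 in diabetic muscle (adjusted p = 0.511 and 0.575) and 0.61 and 0.30 with treatment (adjusted p = 0.289 and 0.656).

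Complex IV, cytochrome c oxidase, reduces oxygen. Cox5a (rc_AI104513_at) had the largest difference of this complex in both comparisons, at a much dimmer signal than most members. It read 1512, 1065, 3249, 1698 and 1064 in normal and 687, 696, 701, 574 and 797 in diabetic arrays. The treated diabetic arrays read 1658, 769, 2205, 1329 and 3797 and the treated normal arrays 1613, 1464, 1151, 718 and 1087. The diabetic arrays lay close together and below every normal array, whereas treated diabetic replicate 2 fell within the diabetic range. The log2 changes were -1.17 ± 0.36 and 1.29 ± 0.36 (SE, n = 5 per group, limma adjusted p = 0.103 and 0.118).

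Cox5b (rc_AI229620_s_at), the zinc-binding subunit, read 72653, 62714, 88401, 59375 and 95375 in normal and 34409, 53794, 35735, 34552 and 41536 in diabetic arrays. The groups did not overlap, and the log2 change was -0.92 ± 0.26 (SE, n = 5 per group, limma adjusted p = 0.0786). With treatment it was 0.71 (adjusted p = 0.209), and treated diabetic replicate 5, at 43810, stayed within the diabetic range. The other tested probe set of Cox5b (D10952_i_at) changed by -0.16 with treatment. On it the same array read 1379, against 17837 to 41400 in the rest of its group. Cox6b1 (rc_AI104035_s_at) lay from 37595 to 61173 in diabetic and 65494 to 146588 in treated diabetic arrays. These groups did not overlap, with a log2 change of 0.92 ± 0.29 (adjusted p = 0.144), and Cox7b also separated them (log2 change 0.63, adjusted p = 0.252). None of the tissue isoforms was called or separated the groups in these comparisons. Cox6a2 (X12554cds_s_at), the heart and muscle form of subunit 6a, read 77006, 119869, 104728, 76215 and 95461 in diabetic and 193715, 100863, 117728, 119311 and 28342 in treated diabetic arrays, so replicate 5 stood far below the other 4. Its change with treatment was 0.03 over all arrays, 0.47 without treated diabetic replicate 5, -0.44 after quantile normalization and 0.46 on its other tested probe set (rc_AI171644_s_at). For Cox8b, the muscle form of subunit 8, it was 0.60, and for the forms found in most tissues, Cox6a1, Cox8a and Cox4i1, the changes were 0.18, 0.06 and 0.81, of which those of Cox6a1 and Cox8a turned to -0.06 and -0.31 as averages over all tested probe sets of the gene. Cox4i2, the second form of subunit 4, was dimmer than most members (2193 to 3167 in diabetic, 1797 to 4071 in normal and 1867 to 4535 in treated diabetic arrays), with a log2 change of -0.09 (adjusted p = 0.906).

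**Figure D3:**
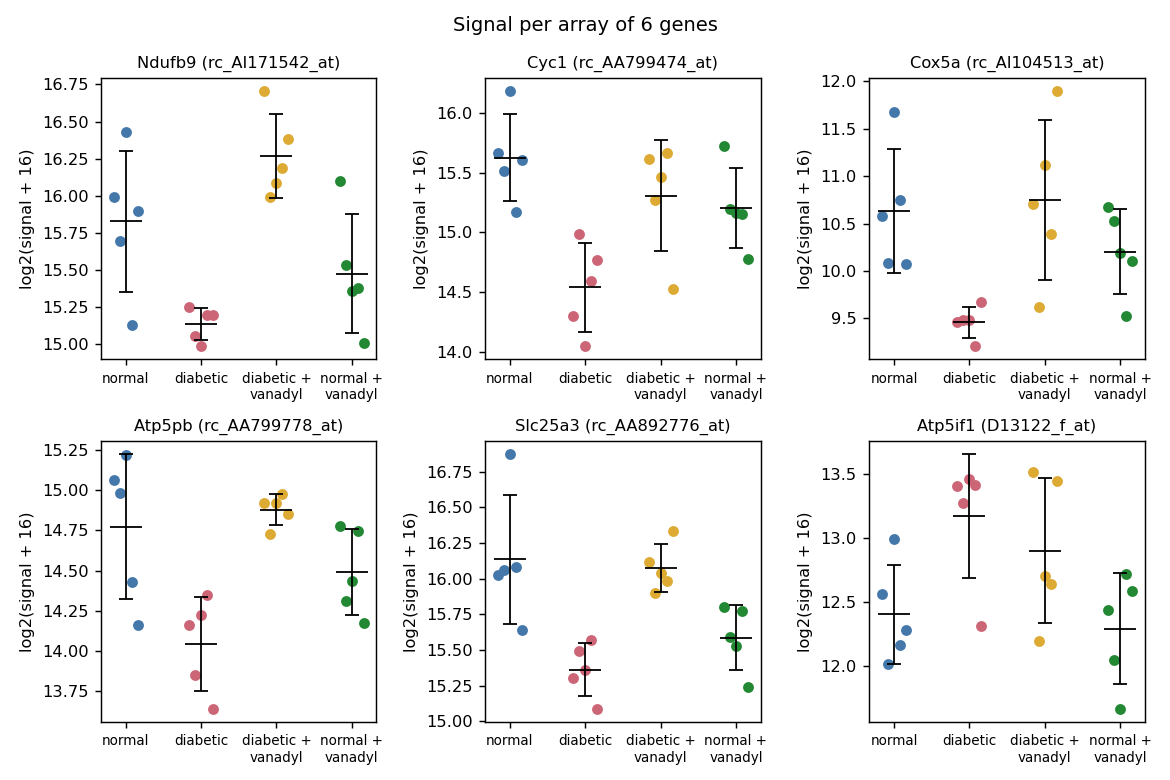
Each point is log2(signal + 16) of 1 array for 6 genes in the 4 groups of 5; horizontal bars are group means and error bars are SD, and the vertical axes differ and do not start at 0. The diabetic points lie below all normal points for Cyc1, Cox5a and Slc25a3 and below all treated diabetic points for Ndufb9, Atp5pb and Slc25a3, while 4 of the 5 diabetic points of Atp5if1 lie above every normal point.

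ATP synthase joins a catalytic head to a membrane rotor through a central and a peripheral stalk. Atp5pb (rc_AA799778_at), a peripheral stalk subunit, read 18323, 14786, 19098, 20798 and 12753 in diabetic and 30964, 27109, 30928, 32225 and 29541 in treated diabetic arrays. The normal arrays read 34218, 32399, 38153, 22067 and 18337, and the treated normal arrays 28089, 20289, 22155, 27512 and 18484. The treated diabetic arrays lay within a narrow band well above the diabetic ones, and normal replicate 5 fell within the diabetic range. The log2 changes were -0.73 ± 0.23 in diabetic muscle and 0.83 ± 0.23 with treatment (SE, n = 5 per group, limma adjusted p = 0.106 and 0.109). Atp5pf of the same stalk lay from 11265 to 21242 in diabetic and from 22168 to 32156 in treated diabetic arrays, which did not overlap (log2 change 0.88 ± 0.33, adjusted p = 0.213). Atp5po, which joins the stalk to the head, lay from 72921 to 102982 (median 74351) over the diabetic arrays, against 56457 to 243518 (median 89285) for normal and 87519 to 269376 (median 137953) for treated diabetic ones. These groups overlapped, with log2 changes of -0.21 in diabetic muscle and 0.87 with treatment (adjusted p = 0.839 and 0.289), and the former turned to 0.21 without the 3 high-Gapdh arrays. The other tested probe set of Atp5po (D13127_at) changed by -0.30 with treatment. On it treated diabetic replicate 5 read 5226, against 43600 to 53049 in the rest of its group.

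In the catalytic head, Atp5f1a and Atp5f1b changed by -0.41 and -0.46 in diabetic muscle and by 0.60 and 0.60 with treatment, and none passed (limma adjusted p from 0.213 to 0.365). Both separated treated diabetic from diabetic arrays, as did Atp5f1c of the central stalk, which lay from 31991 to 41456 in diabetic and 49469 to 100100 in treated diabetic arrays (log2 change 0.92 ± 0.31, SE, 5 arrays a group, limma adjusted p = 0.174). Atp5f1d of the same stalk (U00926_g_at) changed by -0.10 ± 0.53 (limma adjusted p = 0.947). Its diabetic signals ran from 17410 to 32018 (median 23911), and its treated diabetic signals were 36206, 44817, 50792, 24226 and 3253, and without replicate 5 the change was 0.61. The other tested probe set of Atp5f1d (U00926_at) changed by 0.24, with treated diabetic replicate 5 at 3181.

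The carriers serve ATP synthase with its substrates. Slc25a3 (rc_AA892776_at), the phosphate carrier, read 66553, 68230, 120129, 69251 and 51096 in normal and 40328, 45990, 42017, 48692 and 34760 in diabetic arrays. It read 70943, 61125, 67429, 64778 and 82778 in treated diabetic and 57031, 49434, 47108, 55941 and 38736 in treated normal arrays. The diabetic group lay wholly below both the normal and the treated diabetic group. The log2 changes were -0.77 ± 0.22 and 0.71 ± 0.22 (SE, n = 5 per group, limma adjusted p = 0.0732 and 0.128). Slc25a4 (D12770_s_at), the adenine nucleotide translocator of muscle, had the values 88790, 79017, 245324, 104141 and 121940 in normal and 71281, 106836, 94141, 69975 and 83426 in diabetic arrays. Its treated diabetic signals were 181084, 94482, 120719, 117437 and 200093, and its treated normal signals 84018, 81950, 71203, 107315 and 55822. Treated diabetic replicate 2 alone of its group fell within the diabetic range, and the normal and diabetic arrays overlapped. The log2 changes were -0.48 and 0.71 (adjusted p = 0.427 and 0.251).

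The associated genes varied in direction. Atp5if1 (D13122_f_at), which inhibits ATP synthase when it runs backward, read 10843, 9851, 11212, 10852 and 5068 in diabetic and 6039, 4129, 8120, 4558 and 4945 in normal arrays. All diabetic arrays but replicate 5 lay above every normal array, and the log2 change was 0.77 ± 0.31 (SE, n = 5 per group, limma adjusted p = 0.199). With treatment the change was -0.27 (adjusted p = 0.674). Cox7a2l, a factor of supercomplexes, lay from 9778 to 13744 (median 10976) over the diabetic arrays, 4897 to 12786 (median 10034) over the normal and 9927 to 16028 (median 11396) over the treated diabetic ones. It changed by 0.35 and 0.06 for the same comparisons (adjusted p = 0.531 and 0.931). Ndufaf3, an assembly factor of complex I, lay from 3542 to 6641 in diabetic and 7472 to 11280 in treated diabetic arrays, with no overlap (log2 change 0.80 ± 0.24, adjusted p = 0.122). Over its 3 tested probe sets this change ran from -0.18 to 0.80. The Ndufa4 paralogue Ndufa4l2 was dimmer than most members, at 555 to 1335 in diabetic and 734 to 2441 in normal arrays (log2 change -0.66, adjusted p = 0.392). Cox6c-ps1, a pseudogene of Cox6c, was dimmer still at 90.5 to 639 in normal arrays, and its probes may also bind the transcript of its parent gene.

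In normal rats, treatment gave no call among the members, where 4 of 6027 probe sets were called (0.0664%, limma). At an unadjusted p under 0.05, 5 of 97 member probe sets were lower, for Ndufc1, Slc25a3, Cox6b1, Ndufb2 and Atp5f1a, where 9.23% of all probe sets passed in either direction, 1.89% lower and 7.33% higher. The median change over the 56 genes was -0.34, with 48 below 0, against 0.17 over all genes. None of the 56 separated the 2 groups, where 1.84% of all probe sets did. The median over all probe sets was itself 0.18 with the authors' scaling, 0.03 after quantile normalization and -0.01 with each array divided by its own median; the members' median was -0.16 and -0.54 with these other scalings. Leaving out the 3 high-Gapdh arrays gave a median of -0.10 with 36 of 56 genes below 0, without normal replicate 3 alone it was -0.17, and without treated normal replicate 5 alone -0.19.

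The interaction sets the treatment change in diabetic rats against that in normal rats. No member passed, where 10 of 6027 probe sets did (0.166%, limma), and 44 of 97 member probe sets had an unadjusted p under 0.05 (43 higher), where 13.3% of all probe sets did and 5.08% were higher. The median over the 56 genes was 1.04, with 52 above 0, against -0.10 over all genes. The members with the smallest p were Ndufb9 (1.49 ± 0.35, SE), Slc25a3 (1.26 ± 0.31) and Ndufb2 (1.55 ± 0.38), with limma adjusted p-values of 0.111, 0.117 and 0.117 (n = 5 per group). The median was 0.75 without the 3 arrays of high Gapdh ratio, 0.68 after quantile normalization, and 0.58 with the replicate number as a block and both RNA ratios as covariates, while over all probe sets it was -0.13 with the authors' scaling and 0.01 after quantile normalization.

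Treated diabetic muscle was also set against both normal groups. Against untreated normal muscle the median change was 0.19, with 39 of 56 genes above 0, against 0.09 over all genes. No member was called there, where 0 of 6027 probe sets were (0%, limma), and 10 of 97 had an unadjusted p under 0.05 (2 higher and 8 lower), where 12.8% of all probe sets did, 6.29% higher and 6.49% lower. Without normal replicate 3 the median was 0.36. No member gene separated these groups, where 0.68% of probe sets did and 0.398% with the treated diabetic arrays higher. Against treated normal muscle the median was 0.53, with 47 of 56 above 0, against -0.10 over all genes, and again 0 of 6027 probe sets were called (0%). There 32 of 97 member probe sets had an unadjusted p under 0.05 (27 higher), where 17.9% of all probe sets did and 5.53% were higher. Of the 97 member probe sets, 7 lay wholly above treated normal muscle and 2 wholly below. Of all probe sets, 1.21% were separated in the former direction and 2.01% in the latter. Among the 56 genes, read from their brightest probe sets, Ndufb11, Ndufb2, Ndufs6, Cox6b1, Atp5f1a and Slc25a3 lay wholly above and none wholly below.

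The members were next related to the RNA control ratios within groups, by a slope on each ratio added to the group means. Over the 56 genes the median slope was 0.20 log2 units per unit of the beta-actin log2 ratio and 0.17 per unit of the Gapdh ratio, with 51 of 56 genes above 0 for each, against medians of -0.02 and 0.01 over all genes. The slope on the beta-actin ratio was called for 6 of 97 member probe sets, each of them negative, where 7.93% of all probe sets were called, 6.89% negative and 1.05% positive (limma, adjusted p under 0.05). These were the dim probe sets of Ndufs1 (AA686031_at) and Ndufs8 (rc_AA799479_at) and 4 of Ndufa4l2. For the Gapdh ratio 5 of 97 were called, where 6.06% of all were, 0.581% positive and 5.48% negative. Of these, 1 each for Cox6a1 (X72757_at), Atp5f1e (rc_AI171844_g_at) and Atp5if1 (rc_AA891873_f_at) were positive, and 1 each for Ndufs1 and Ndufa4l2 were negative. At an unadjusted p under 0.05 the Gapdh slope was positive for 27 of 97 member probe sets, where 7.02% of all were. The 3 arrays with the highest Gapdh ratios had member medians of 0.12, 0.56 and 0.44, all above 0. These counts depended on single arrays: the Gapdh count was 10, 1, 2, 17, 1 and 13 without normal replicates 1, 2 and 3 and treated diabetic replicates 1, 2 and 5, and the beta-actin count was 2, 3, 3, 3, 10 and 3 without normal replicates 1, 4 and 5, treated diabetic replicates 2 and 5 and treated normal replicate 1. The share of all probe sets called in each of these fits is not given here. Whether the members moved apart from the whole table was not tested. With both ratios as covariates the median change was -0.33 from normal to diabetic muscle (49 of 56 genes below 0) and 0.57 from diabetic to treated diabetic muscle (52 of 56 above 0), and no member was called in either, with an adjusted p of 0.171 for Cyc1 and 0.0597 for Ndufb9.

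**Figure D4:**
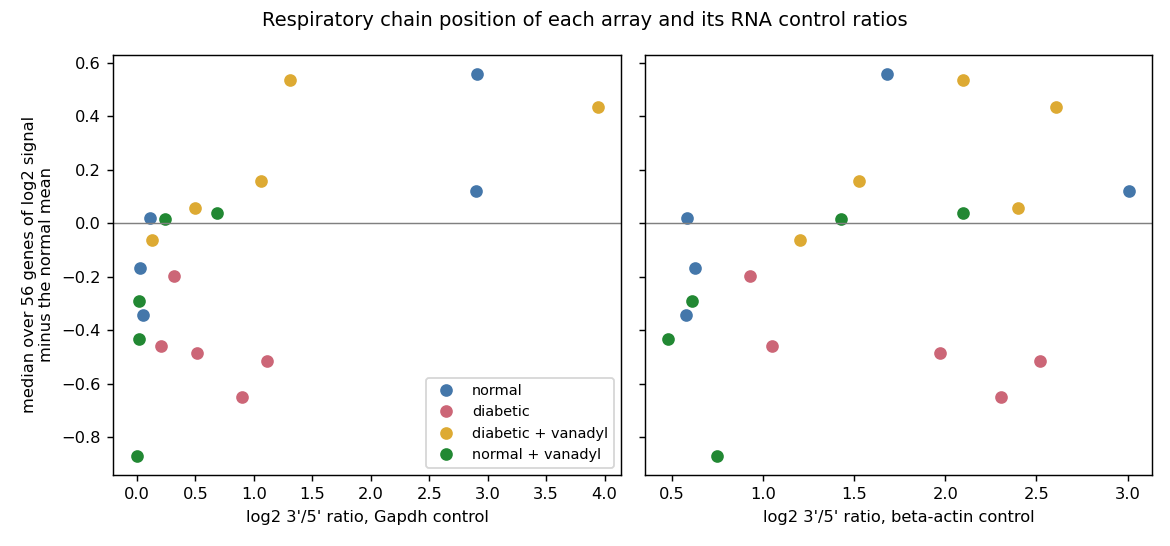
Each point is 1 array: the vertical axis is the median over the 56 genes of log2 signal minus the normal mean, and the horizontal axes are the log2 ratios of 3' to 5' signal of the Gapdh (left) and beta-actin (right) control probe sets, coloured by group. The 5 diabetic arrays lie from -0.65 to -0.20, with Gapdh ratios from 0.21 to 1.11. The Gapdh ratios of the treated diabetic arrays run from 0.13 to 3.94, and the 3 arrays at the far right of the Gapdh panel lie above 0.

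More than 1 tested probe set was present for 27 of the genes, which gives a check on the choice of probe set. For diabetic against normal muscle all probe sets of a gene had the same sign in 26 of 27 genes. For treated diabetic against diabetic muscle they did so in 14 of 27. The widest gap there was in Ndufv3, where AB000098_g_at, with a normal mean of 15.50, changed by 1.00 and AB000098_at, with a normal mean of 8.42, changed by -1.64 (limma adjusted p = 0.119 for the latter). Uqcrfs1 changed by 0.75, 0.70 and -0.24 on its 3 probe sets, and Cox4i1 by 0.81, 0.36 and -0.60 on its 3. The direction with treatment is therefore that of the brightest probe set for 13 of the 27 genes and not of all their probe sets. On M24542cds_at of Uqcrfs1, at -0.24, treated diabetic replicate 5 read 5374, against 13261 to 28334 in the rest of its group. On X54081mRNA_i_at of Cox4i1, at -0.60, the same array read 1783, against 17674 to 34554. On the brightest probe set of both genes that array was the highest of its group. How many of the 13 genes owe their mixed signs to this array was not tested. Averaging the probe sets of each gene gave a median of 0.62 over the 56 genes with 48 above 0, and -0.52 with 53 below 0 for diabetic against normal muscle.

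**Figure D5:**
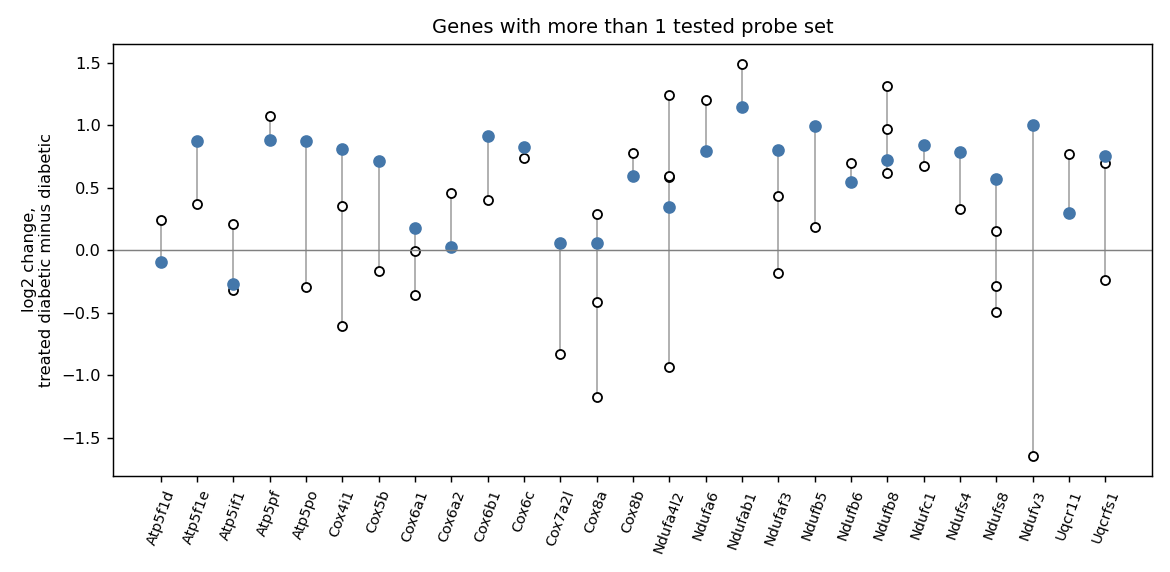
For the 27 genes with more than 1 tested probe set, each point is the log2 change of 1 probe set from diabetic to treated diabetic muscle; the filled point is the gene's brightest probe set on average and grey lines join the probe sets of a gene. The points of 14 genes lie on 1 side of 0, and Ndufv3 spans from -1.64 to 1.00.

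Neighbouring mitochondrial pathways were described from lists of their genes, given as counts and medians. Of the citrate cycle and pyruvate entry list, 10 of 17 genes were tested, and 2 were called lower in diabetic muscle. These were Mdh2, the mitochondrial malate dehydrogenase (log2 change -1.22 ± 0.26, SE, n = 5 per group, limma adjusted p = 0.0197), and Pdhx, a binding protein of the pyruvate dehydrogenase complex (-1.34 ± 0.29, adjusted p = 0.0208). The median of the 10 was -0.81, with 10 of 10 below 0, and with treatment it was 0.52 with none called. Ckmt2, the sarcomeric mitochondrial creatine kinase, was the 1 of 12 other membrane genes called lower in diabetic muscle (-1.42 ± 0.35, adjusted p = 0.045), and it changed by 1.40 with treatment (adjusted p = 0.0813). The 12 had medians of -0.12 and -0.04. The 5 tested genes of complex II and other electron entry, with Sdha the lowest in p at -0.73 (adjusted p = 0.138), had medians of -0.50 and 0.26. The 8 assembly and import genes had medians of -0.13 and 0.37, the 5 regulators of mitochondrial biogenesis -0.30 and 0.25, and the 12 glycolytic genes -0.26 and 0.37, with none called in either comparison. Among the regulators, Esrra, an estrogen-related receptor, changed by -0.47 and 0.67 (adjusted p = 0.222 and 0.122). No mitochondrially encoded subunit was among the tested genes.

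Fibre and cell type markers differed between the same groups. The summed signal of the 7 skeletal muscle markers had a median of 568300 for diabetic (491500 to 748700), 696700 for normal (495500 to 2075000), 800700 for treated diabetic (664400 to 1226000) and 551300 for treated normal arrays (450500 to 694700). Their median log2 change was -0.26 in diabetic against normal muscle and 0.61 with treatment, with none called. The 11 fast fibre genes had medians of -0.45 in diabetic against normal muscle and 0.68 with treatment, with none called. The 8 slow fibre genes had medians of 0.32 and -1.53, with Tpm3 called lower with treatment (-1.36 ± 0.30, SE, n = 5 per group, limma adjusted p = 0.0471). The arrays of a group were far apart in these slow fibre genes. Against the normal mean, array medians ran from -2.12 to 0.64 in treated diabetic and -0.86 to 0.86 in diabetic muscle. They ran from -0.40 to 0.34 in normal and -1.33 to 0.0008 in treated normal muscle. Of 9 tested leukocyte markers, 6 were called higher in diabetic muscle, with a median of 1.55 over the 9, and 3 were called lower with treatment. Their summed signal ranged over 18590 to 88070 for diabetic arrays, 8322 to 14310 for normal, 9494 to 16630 for treated diabetic and 11400 to 14450 for treated normal ones; the integrin Itgam did not pass the filter. Of 6 tested adipocyte markers, 3 were called higher in diabetic muscle and 1 was called lower with treatment. The summed signal of the adipocyte markers was 32420 to 53200, 15220 to 26860, 23490 to 34720 and 19280 to 25060 in the same order. Plin1 did not pass the filter. The 1 tested marker of brown fat, Cidea, is also among the adipocyte markers. The tested markers of red blood cells (4), endothelium (3), smooth muscle (5) and nerve (4) had medians of -0.24, -0.08, 0.39 and 0.12 in diabetic against normal muscle and 0.22, 0.15, -0.36 and 0.50 with treatment, with none called. The part of these shifts in muscle, fibre and cell type markers in the respiratory chain values was not tested.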

How the data were processed

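Signals of 20 arrays (4 groups of 5) were taken from the deposited table: 1 linear intensity per probe set, from the authors' MAS5 run (per the submitters' processing notes, which as used here name no version). The mean after trimming 2% at each end was 2503.4 to 2506.46 in each array, so this scaling was kept. Of 8799 probe sets, 59 controls were left out, and 6027 were tested, namely those over the 40th percentile of an array in 5 or more of the 20. No detection calls were used. Group means of log2(signal + 16) were fitted with limma 3.58.1 (lmFit, eBayes, R 4.3.3) to all 20 arrays, two-sided, with Benjamini-Hochberg adjustment over the 6027 and a threshold of 0.05. A gene was read from its brightest probe set on average. Probe sets with several symbols (308) were not named; 1473 were unlisted.

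Every member is named; signals by array or as ranges are given for called members and, per complex, the 3 smallest p and the largest p in diabetic against normal and in treated diabetic against diabetic muscle. Members, complexes and lists were chosen with earlier results of these data known. The number of arrays limits the precision. Alternatives were a smaller and a larger pseudocount, no filter, quantile normalization, each array divided by its median, averaged probe sets, a fit to 2 groups, RNA ratios as covariates, a replicate block and arrays left out. The fit was also run on simulated data with planted changes and independent noise for each probe set. Such data lack the variation that the probe sets of an array share.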

Additional observations from a re-analysis of the deposited data

Results flagged for a closer look

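The following values stood apart by simple rules. Among 148 sets of 5 arrays tested with Dixon's criterion (0.71), 6 held an array far from the other 4; chance gives about 1 in 20. For single genes these were Ndufb2 in treated diabetic replicate 1 (log2 signal 16.89, the next being 16.12), Ndufs8 in treated normal replicate 5 (13.69 against 14.81), Atp5f1d in treated diabetic replicate 5 (11.67 against 14.57) and Atp5if1 in diabetic replicate 5 (12.31 against 13.27). For medians over genes they were ATP synthase in normal replicate 3 (0.81 above the normal mean, the next being -0.10) and the carriers in the same array (0.90 against -0.11).

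In 5 of 35 items, all 5 treated diabetic arrays lay above the diabetic mean and all 5 treated normal arrays below the normal mean. The items were the genes given with signals and medians over genes. Many of these genes were picked by small p in the same data, which favours a change with treatment. The rule was not run over all probe sets, so no share stands beside this count. The carriers' median is made of Slc25a3 and Slc25a4 and adds nothing to them. The treatment change of the diabetic groups less that of the normal groups was 1.55 for Ndufb2, 1.57 for Cox6b1, 1.26 for Slc25a3, 1.29 for Slc25a4 and 1.27 for the carriers' median. This opposite movement itself was not tested; the interaction term of these 4 genes had limma adjusted p-values of 0.117, 0.121, 0.117 and 0.178 in that order, and none passed.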

How the results depend on the processing

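The median changes over the 56 genes kept their sign in all alternatives run. Single genes did not: 14 of 56 changed sign under at least 1 alternative in diabetic against normal muscle and 11 of 56 in treated diabetic against diabetic muscle, none with a call in the other direction. The calls of Cyc1 and Ndufb9 kept their sign in each. The interaction median moved from 1.04 to 0.68 after quantile normalization, 0.73 with the Gapdh ratio as covariate, 0.71 with both ratios and 0.58 with a replicate block and both ratios. In diabetic against normal muscle, 1 called member became 3 with a larger pseudocount or quantile normalization, 2 with the Gapdh ratio and 4 when the 3 high-Gapdh arrays were left out. It became 0 without the filter, with each array divided by its own median, with only the 2 groups in the fit, with both ratios, with the replicate block alone or with both ratios, and without diabetic replicates 1 and 3. In treated diabetic against diabetic muscle, 1 became 0 without the filter, after quantile normalization, with each array divided by its median, with only 2 groups, with the Gapdh ratio, both ratios, or the replicate block with both, without the 3 arrays, and without diabetic replicates 1 and 3. Against normal muscle, treated diabetic calls went from 0 to 2 without the 3 arrays. Slope calls for beta-actin went from 6 to 10 (larger pseudocount, or own median), 2 (quantile), 14 (no group term) and 0 (without the 3 arrays); for Gapdh from 5 to 12 (larger pseudocount), 9 with own median, 23 with no group term and 1 without the 3 arrays. Leaving out 1 array at a time gave 0 to 2 calls in diabetic against normal muscle (2 without normal replicate 1) and in treated diabetic against diabetic muscle (2 without treated diabetic replicate 2), 0 to 1 in treated diabetic against treated normal muscle (1 without treated diabetic replicate 2), 0 to 2 for the interaction (2 without treated normal replicate 1), 2 to 10 beta-actin slopes and 1 to 17 Gapdh slopes. The shares of all probe sets called under each alternative are not set beside these counts. A count of members can therefore move with the whole table, and these moves are not read as a trait of the members. The cause of these moves was not tested, beyond the fewer arrays or genes that an alternative has by construction. Dividing by the array median and leaving out arrays 1 and 3 were chosen after seeing the data. The replicate numbers were not treated as pairs in the main fit, and the replicate block is among the alternatives above. Of 30 same-numbered pairs, 11 had a correlation of deviations over 0.1 (-0.28 to 0.62, median 0.07). Of 120 differently numbered pairs 33 did (-0.49 to 0.41, median 0.0038). Replicate 1 had the highest beta-actin log2 ratio in normal (3.01), treated diabetic (2.61) and treated normal muscle (2.09). In diabetic muscle it was 2.30, under replicate 3 at 2.52. What arrays of the same number share was not tested. Members dimmer than most, such as Ndufs1 and Ndufa4l2, are limited by their spread.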

Other observations

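A set of 7 probe sets matched the same name patterns with several gene symbols each and was left out of the named members. All 7 were tested. Their log2 changes from normal to diabetic muscle were below 0 in 7 of 7 (median -0.38, from -0.87 to -0.03), and from diabetic to treated diabetic muscle above 0 in 6 of 7 (median 0.63, from -0.46 to 0.99), with 0 called by limma in either (lowest adjusted p 0.194 and 0.122). From normal to treated normal muscle 3 of 7 were above 0 (median -0.10).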
